A study of Mus musculus with 12 samples.

Results

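The Toll-like receptor (TLR) genes described here are TLR4, its 2 co-receptors LY96 (the protein MD-2) and CD14, 3 other receptors (TLR2, TLR3 and TLR6), and the 3 adaptors MYD88, TIRAP and TICAM1. The 9 genes were taken by their symbols from the 23636 symbols measured in CT26 cells, a mouse colon carcinoma cell line. Cells were left without treatment (No treatment), or were given recombinant CX3CL1 at 2 µg/ml, IFN-γ at 100 ng/ml, or both (CX3CL1+IFN-γ), for 8 hours. The study's results text describes IFN-γ and TNF-α followed by CX3CL1, whereas its figure legend and the sample labels name IFN-γ without TNF-α. The order in which the agents were given, and whether TNF-α was present, are therefore not settled. All libraries came from this 1 established line, grown in culture. Each of the 4 groups had 3 biological replicates, and mRNA sequencing gave 12 libraries.

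Toll-like receptors recognise microbial molecules and signals from damaged cells. TLR4 binds bacterial lipopolysaccharide (LPS) with MD-2, which holds the lipid, and with CD14, which hands it over. TLR2 pairs with TLR1 or TLR6 to sense lipopeptides at the cell surface, and TLR3 senses double-stranded RNA in endosomes. MYD88 carries the signal of nearly all of these receptors towards NF-kB, and TIRAP brings MYD88 to TLR2 and TLR4. TICAM1 (the protein TRIF) is the adaptor of TLR3 and of internalised TLR4, and leads to interferon genes as well as NF-kB.

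Values are TPM, relative transcript levels that allow for transcript length and add up to 1000000 in every library, so levels of different genes can be set side by side but read depth is unknown. The libraries each held 10613 to 10824 symbols at 1 TPM or more. Replicates of a group correlated at 0.984 to 0.996 across genes, and CX3CL1 replicate 2 stood apart from the other CX3CL1 libraries. The IFN-γ response genes GBP2, IRF1 and CXCL9 were each higher in the IFN-γ than in the No treatment libraries. With CX3CL1 alone, GBP2 averaged 72.78 TPM against 10.01 TPM without treatment, and IRF1 28.9 against 19.55 TPM. Neither gene overlapped between these groups, whereas CXCL9 did. In the limma test described below, the adjusted p for CX3CL1 against No treatment was 0.00103 for GBP2 and 0.778 for IRF1. A rise of GBP2 was therefore not specific to IFN-γ. CX3CR1, the receptor of CX3CL1, reached at most 0.154 TPM in any library. The study reports high CX3CR1 protein on CT26 cells by flow cytometry, which is another measure than mRNA. Of the leukocyte markers, TYROBP was listed at 0 in all 12 libraries and PTPRC, ADGRE1 and CSF1R stayed at or below 0.0441 TPM, whereas CD68 lay between 7.95 and 26.98 TPM and LYZ2 reached 1.86 TPM. Among epithelial markers, EPCAM was listed at 0 in all 12 libraries, CDH1, KRT19 and KRT8 were below 0.4 TPM, and KRT18 lay between 18.4 and 53.6 TPM, whereas the mesenchymal marker VIM lay between 1684 and 4831 TPM.

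Differences were tested on log2(TPM + 1) with limma for the 11878 genes that averaged 0.2 TPM or more, with Benjamini-Hochberg adjustment over those genes. A gene was called at an adjusted p under 0.05. Of the 9 genes, 8 were tested, and TLR2 was too low. A permutation test of 3 libraries against 3 cannot go below an exact two-sided p of 0.1, so the calls depend on the variance that limma shares across genes. Log2 fold changes on this scale understate the change of genes with few TPM. In RNA from a whole culture, a higher level per cell and a larger share of expressing cells cannot be told apart.

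In untreated CT26 cells, 7 of the 9 genes had group means between 10.9 and 29.9 TPM. MYD88 was highest at 29.9 ± 2.84 TPM (mean ± SD, n = 3), followed by CD14 at 26.9 ± 2.92, LY96 at 21.1 ± 7.23, TIRAP at 16.7 ± 1.76, TLR4 at 12.9 ± 2.87, TLR3 at 12.1 ± 4.67 and TICAM1 at 10.9 ± 0.884 TPM. The replicates of each of these genes overlapped with those of the next in the order, so neighbours among them were not separated. MYD88 and CD14 were each separate from TLR4, TLR3 and TICAM1. TLR6 was lower, at 1.55 ± 0.749 TPM, and did not overlap with TICAM1. TLR2 was listed at 0 in all 3 libraries.

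With either treatment TLR3 moved up this order, and the others largely kept their places. TLR3 ranked sixth of the 9 genes in the No treatment group, second with CX3CL1, and first in both IFN-γ groups. In these IFN-γ groups the TLR3 and MYD88 replicates overlapped with each other, and both genes were separate from CD14, the next in the order. TLR4 and TICAM1 were neighbours in all 3 treated groups, with overlapping replicates each time.

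**Figure D1:**
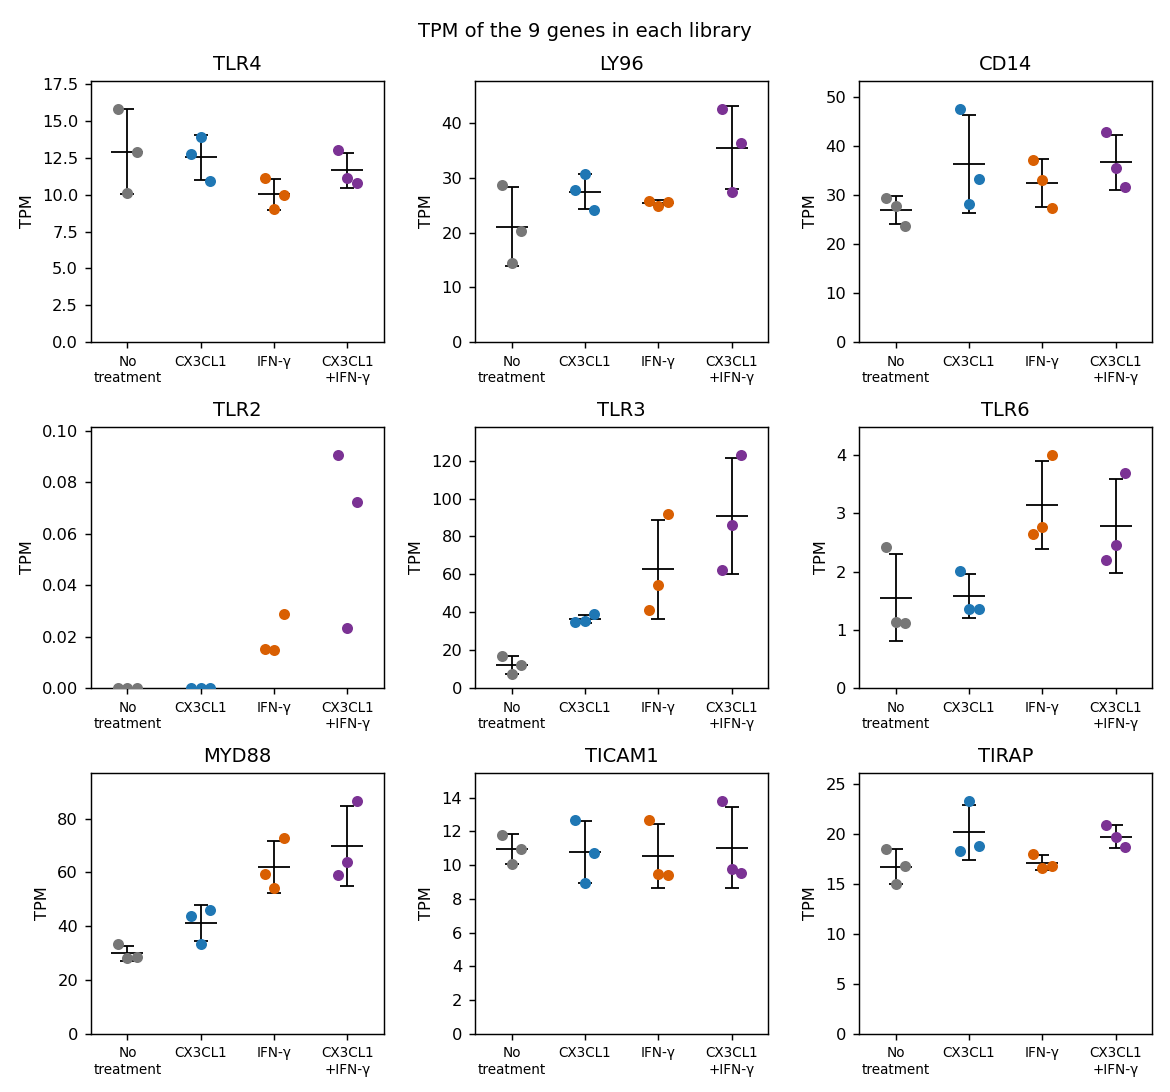
TPM (vertical axes, linear, each from 0) of the 9 genes in the 12 libraries by treatment group. Each point is 1 library, and the horizontal line and bars are the mean and SD of 3 libraries (not drawn for TLR2). The TLR3 points rise from 7.58 to 16.9 TPM without treatment to 62.4 to 123.1 TPM with both agents, whereas those of TLR4 stay between 9.003 and 15.8 TPM.

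Start regions are shown for the 3 genes with the clearest differences in the IFN-γ groups, TLR3, MYD88 and TLR6, with motifs known from interferon and NF-kB signalling. GAS (TTCNNNGAA) is an IFN-γ response motif, ISRE (GAAA, any 2 bases, then GAAA) is bound by interferon regulatory factors, and NF-kB sites are bound by NF-kB dimers. The 250 bases before each start site were searched on both strands in the RefSeq windows of GRCm38.p6, which held 6 of the 9 genes and did not include TLR4 or LY96. CD14 was not examined. Of all 32851 windows, 7.02% held a GAS, 2.98% an ISRE and 7.25% an NF-kB match. Sequences run 5′ to 3′ on the strand of the gene, and capitals mark the matches.
TLR3, chr8:45410572-45410601, minus strand: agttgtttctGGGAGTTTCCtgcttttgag
MYD88, chr9:119340042-119340268, minus strand: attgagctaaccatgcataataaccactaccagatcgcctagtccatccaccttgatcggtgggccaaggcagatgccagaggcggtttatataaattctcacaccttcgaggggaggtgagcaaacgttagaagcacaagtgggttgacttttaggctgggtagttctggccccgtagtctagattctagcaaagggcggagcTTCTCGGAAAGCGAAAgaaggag
TLR6, chr5:64959167-64959416, minus strand: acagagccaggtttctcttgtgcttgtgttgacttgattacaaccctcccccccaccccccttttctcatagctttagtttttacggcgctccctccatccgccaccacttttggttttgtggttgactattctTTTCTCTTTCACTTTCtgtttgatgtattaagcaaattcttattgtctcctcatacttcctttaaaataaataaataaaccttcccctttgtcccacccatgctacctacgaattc

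The TLR3 stretch, which lies in annotated exon sequence, has an NF-kB match at positions -211 to -202 from the start site, and no GAS or ISRE was found in the TLR3 window. That window (45410381 to 45410630) lies inside the GENCODE gene, whose minus-strand start is at 45411080. The TLR3 bases before that start were not searched, so the absence of a motif holds for this window only. The MYD88 window and the TLR6 window shown likewise lie inside their GENCODE genes. The MYD88 stretch has a GAS at -46 to -38 and an ISRE at -40 to -31, which overlap. The TLR6 stretch has 2 overlapping ISRE matches on the opposite strand, at -116 to -107 and -110 to -101 from one of its 2 start sites, and the window of its other start site held none of the motifs. The TLR2 window had 2 overlapping NF-kB matches, and the windows of TIRAP and TICAM1 had no match. These are letter matches, and binding was not measured.

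TLR4, the signalling chain of the LPS receptor (chromosome 4, 66827584 to 66930284, plus strand, GRCm38), differed little between the groups. Its levels were 15.8, 10.1 and 12.9 TPM in the No treatment libraries and 12.8, 13.9 and 10.9 TPM in the CX3CL1 libraries. They were 11.1, 9.003 and 9.96 TPM with IFN-γ and 13.02, 11.2 and 10.8 TPM with CX3CL1+IFN-γ. All 4 groups overlapped with one another. The log2 fold change was -0.03 for CX3CL1 against No treatment (95% interval -0.36 to 0.31), and its sign turned under another scaling of the libraries. For IFN-γ against No treatment it was -0.32 (interval -0.65 to 0.01, limma adjusted p = 0.246), and for CX3CL1+IFN-γ against IFN-γ it was 0.20 (-0.13 to 0.53).

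LY96 encodes MD-2, the subunit that binds LPS within the TLR4 complex (chromosome 1, 16688051 to 16709611, plus strand). Its levels were 28.8, 14.4 and 20.2 TPM without treatment, 27.8, 30.7 and 24.2 TPM with CX3CL1, and 25.8, 25.0 and 25.6 TPM with IFN-γ. With CX3CL1+IFN-γ they were 42.6, 27.5 and 36.5 TPM, and each of these was above every IFN-γ library. The spread of the No treatment libraries, which covered the whole range of the IFN-γ group, was the widest for LY96 among the groups relative to its mean. LY96 was not called in any comparison. Its log2 fold change was 0.41 for CX3CL1 against No treatment (SE 0.21, limma adjusted p = 0.732) and 0.44 for CX3CL1+IFN-γ against IFN-γ (SE 0.21, adjusted p = 0.976, unadjusted p = 0.0539).

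CD14, the LPS carrier protein that delivers LPS to the TLR4 complex (chromosome 18, 36725067 to 36726798, minus strand), was likewise not called. The No treatment libraries held 29.3, 27.8 and 23.7 TPM, and the CX3CL1 libraries 47.5, 28.03 and 33.3 TPM. With IFN-γ the levels were 37.0, 33.0 and 27.3 TPM, and with both agents they were 42.7, 35.5 and 31.6 TPM. The CX3CL1 values spread the most, from replicate 2, which lay among the No treatment libraries, to replicate 1, which was the highest of all 12. The log2 fold change was 0.39 for CX3CL1 against No treatment (SE 0.18, interval -0.01 to 0.78, limma adjusted p = 0.636) and 0.26 for IFN-γ against No treatment (adjusted p = 0.451).

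Within each library, LY96 stood at 1.43 to 1.82 times the TLR4 level without treatment, at 2.18 to 2.21 times with CX3CL1, at 2.32 to 2.78 times with IFN-γ and at 2.47 to 3.37 times with both. All 9 treated libraries thus had a higher ratio of LY96 to TLR4 than the 3 untreated ones. This ratio is a description and was not tested. The ratio of CD14 to TLR4, at 1.84 to 2.75 without treatment and 2.92 to 3.28 with both agents, was separate between these 2 groups and overlapped between all other pairs of groups. TICAM2 (TRAM), the sorting adaptor that links TLR4 to TICAM1, reached at most 0.0249 TPM in any library. Most TICAM2 values were listed at 0, which can be a failed estimate, as described below for TLR2.

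TLR3 had the largest log2 fold change of the 8 tested genes in all 4 comparisons of groups. It is the endosomal receptor for double-stranded RNA (chromosome 8, 45395665 to 45411080, minus strand), and its exons overlap with Gm45542, an antisense gene. The libraries were made with a strand-specific kit, but whether strand was used in counting is not stated, so reads of the antisense gene could be included. TLR3 stood at 16.9, 7.58 and 11.9 TPM without treatment and at 34.7, 35.4 and 39.0 TPM with CX3CL1. With IFN-γ it stood at 41.3, 54.4 and 92.0 TPM, and with both agents at 62.4, 86.1 and 123.1 TPM. Each CX3CL1 library was above each untreated library, and each IFN-γ library was above each CX3CL1 library, while the IFN-γ and CX3CL1+IFN-γ groups overlapped.

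TLR3 rose 3.00-fold in mean TPM with CX3CL1, and was the only one of the 8 tested genes called in that comparison (log2 fold change 1.57, SE 0.31, limma adjusted p = 0.0167). Of all 11878 genes, 1.78% were called higher and 0.168% lower there. The TLR3 call was near the threshold. Without CX3CL1 replicate 2, the library that stood apart, the log2 fold change was 1.59 and the adjusted p 0.0519, and leaving out any other CX3CL1 library, No treatment replicate 2 or No treatment replicate 3 gave log2 fold changes of 1.30 to 1.60 and adjusted p-values of 0.0530 to 0.0883. Without the filter on low TPM the log2 fold change was again 1.57 and the adjusted p 0.0728.

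With IFN-γ, TLR3 rose 5.16-fold over No treatment (log2 fold change 2.26, SE 0.31, limma adjusted p = 0.000423), and it was called under every one of the 18 alternatives tried. IFN-γ added to CX3CL1 raised TLR3 2.49-fold over CX3CL1 alone (log2 fold change 1.24, SE 0.31, adjusted p = 0.0404). That call held in 9 of 18 alternatives. It was lost under median-ratio scaling (adjusted p = 0.0585), without a filter on low TPM (0.102), and when any CX3CL1 library or CX3CL1+IFN-γ replicate 2 or 3 was omitted (0.0777 to 0.179), where omitting CX3CL1+IFN-γ replicate 3 gave the lowest log2 fold change, 0.99. Leaving out No treatment replicate 3 or IFN-γ replicate 2, which are not in this comparison but share the estimate of the spread, also ended the call, with adjusted p-values of 0.0631 and 0.0534.

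CX3CL1 added to IFN-γ gave TLR3 levels 1.45 times those with IFN-γ alone, which was not called (log2 fold change 0.55, interval -0.12 to 1.23, limma adjusted p = 0.976). The interaction, the CX3CL1 effect with IFN-γ minus the CX3CL1 effect without it, was -1.02 on the log2 scale (interval -1.98 to -0.07, unadjusted p = 0.0382, limma adjusted p = 1.0). No gene of the 11878 was called for this interaction (0.00%), and 273 had an unadjusted p under 0.05.

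TLR2 and TLR6, the surface receptors that form one lipopeptide receptor as a pair, were the lowest of the 9 genes in every group. TLR6 (chromosome 5, 64952031 to 64960097, minus strand) is similar in sequence to its neighbour TLR1. Of all 100-base windows of the longest TLR6 transcript, 7.24% are also found in TLR1. Reads from one could thus have been counted for the other. The study's reads were longer than these windows, and the share of reads affected was not measured. TLR6 stood at 2.42, 1.13 and 1.11 TPM without treatment, at 2.02, 1.35 and 1.35 TPM with CX3CL1, at 2.64, 2.77 and 4.01 TPM with IFN-γ, and at 2.19, 2.45 and 3.69 TPM with both. Each IFN-γ library was above each No treatment library, by a narrow margin over No treatment replicate 1. TLR1 itself stayed at or below 0.55 TPM and had no higher level in the IFN-γ groups, with a range of 0.0804 to 0.203 TPM there.

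For IFN-γ against No treatment, TLR6 just missed the threshold (log2 fold change 0.72, SE 0.21, interval 0.26 to 1.18, limma adjusted p = 0.0572). With the replicate number as a block, a term for what libraries of the same number share, the log2 fold change was again 0.72 and the adjusted p 0.0380, which is a call. Without No treatment replicate 1 the log2 fold change was 0.95 (adjusted p = 0.0117), and without CX3CL1+IFN-γ replicate 3 the adjusted p was 0.0495. TLR6 was called in these 3 of 18 alternatives only. Leaving out 1 library of the compared groups gave log2 fold changes of 0.58 to 0.95 and limma adjusted p-values up to 0.221. CX3CL1 gave TLR6 a log2 fold change of 0.04 (interval -0.42 to 0.50), and IFN-γ added to CX3CL1 gave 0.54 (adjusted p = 0.188).

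TLR2 (chromosome 3, 83836272 to 83841767, minus strand) was listed at 0 in all 6 libraries without IFN-γ. The IFN-γ libraries held 0.0151, 0.0146 and 0.0289 TPM, and the CX3CL1+IFN-γ libraries 0.0907, 0.0231 and 0.0722 TPM. The values were thus above 0 in all 6 libraries with IFN-γ, but the highest was 0.0907 TPM. A listed 0 can also be a failed estimate, since RPL26, a ribosomal protein gene that every cell uses (chosen after its values were seen), was at 0 in all 12 libraries. Fitted without the filter on low values, TLR2 differed between CX3CL1+IFN-γ and CX3CL1 by 0.09 on the log2(TPM + 1) scale (limma adjusted p = 0.0490), and between IFN-γ and No treatment by 0.03 (adjusted p = 0.520).

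**Figure D2:**
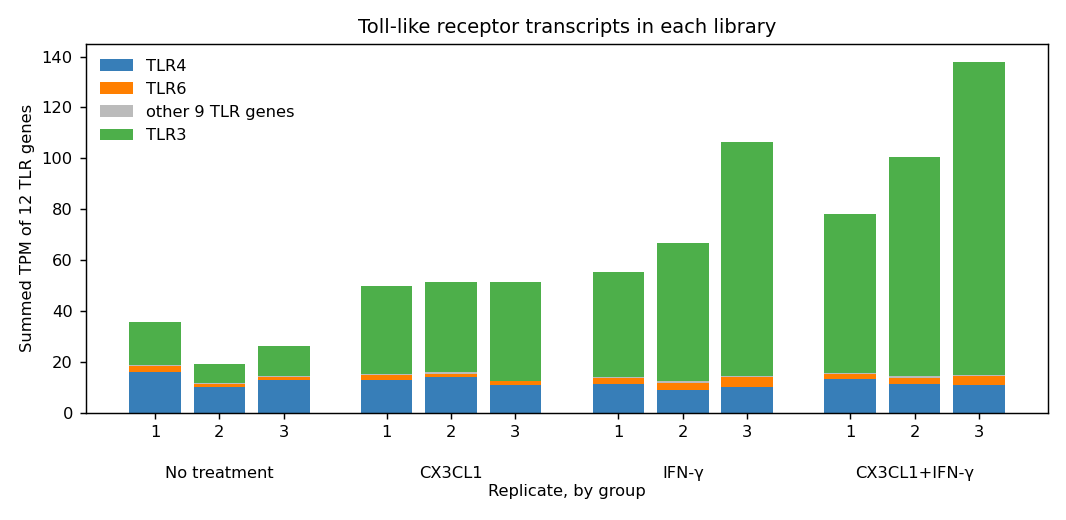
Summed TPM (vertical axis, linear, from 0) of the 12 Toll-like receptor genes in the table, 1 bar per library, grouped by treatment. The TLR3 part grows from 39.6 to 47.2% of the bar without treatment to 79.9 to 89.1% with CX3CL1+IFN-γ, and the TLR4 part keeps about the same height.

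The table holds 12 Toll-like receptor genes, and nearly all of their transcripts came from TLR3, TLR4 and TLR6. Among the 8 receptor genes outside the 9 genes described, TLR7, an endosomal sensor of single-stranded RNA, was the only one tested, and it was not called in any comparison (means of 0.172 TPM without treatment and 0.373 TPM with both agents). TLR11 and TLR12 were listed at 0 in all 12 libraries. Summed over the 12 receptors, transcripts ran from 19.1 to 35.8 TPM without treatment, 49.9 to 51.5 TPM with CX3CL1, 55.5 to 106 TPM with IFN-γ, and 78.1 to 138 TPM with both.

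TLR4 and TLR3 held similar shares of the receptor transcripts in untreated cells, at 44.2 to 52.7% for TLR4 and 39.6 to 47.2% for TLR3. With CX3CL1 the TLR3 share was 69.1 to 75.7% and the TLR4 share 21.2 to 27.2%. With IFN-γ the TLR3 share was 74.4 to 86.5%, and with both agents it was 79.9 to 89.1%, where TLR4 held 7.83 to 16.7%. The shares of all 3 treated groups were separate from those of untreated cells, and the shares of the IFN-γ and CX3CL1+IFN-γ groups overlapped. As TLR4 levels overlapped between all groups, the shares follow the TLR3 values given above. UNC93B1, which escorts TLR3 and other endosomal receptors out of the endoplasmic reticulum, reached at most 0.0481 TPM in any library. Most of its values were listed at 0, which can be a failed estimate, as stated for TLR2.

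MYD88, the adaptor shared by nearly all Toll-like receptors and by the IL-1 receptor family (chromosome 9, 119335934 to 119341411, minus strand), rose with IFN-γ. Its window held the overlapping GAS and ISRE matches, and their part in this rise was not tested. Its exons overlap with those of Acaa1a on the opposite strand and of Slc22a14 on its own strand, and how reads shared by overlapping genes were counted is not stated. MYD88 stood at 33.2, 28.2 and 28.4 TPM without treatment and at 43.9, 33.4 and 46.1 TPM with CX3CL1. With IFN-γ it stood at 59.3, 54.1 and 72.8 TPM, and with CX3CL1+IFN-γ at 59.1, 63.8 and 86.7 TPM. The No treatment, CX3CL1 and IFN-γ libraries formed 3 separate ranges in this order, with CX3CL1 replicate 2 only just above the highest untreated library.

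IFN-γ raised MYD88 2.07-fold over No treatment (log2 fold change 1.02, SE 0.17, limma adjusted p = 0.00167), a call kept in all 18 alternatives. TLR3 and MYD88 were the 2 of the 8 tested genes called in this comparison, where 5.91% of all genes tested were called higher and 1.94% lower. IFN-γ added to CX3CL1 raised MYD88 1.70-fold over CX3CL1 (log2 fold change 0.74, SE 0.17, adjusted p = 0.0218). TLR3 and MYD88 were again the 2 of 8 genes called, against 3.76% of all genes higher and 0.935% lower. The MYD88 call was kept in 13 of 18 alternatives and lost under median-ratio scaling (log2 fold change 0.68, adjusted p = 0.0501), without the filter (0.0530), with only the libraries compared (0.0746), without CX3CL1 replicate 2 (log2 fold change 0.60, adjusted p = 0.0573) and without CX3CL1+IFN-γ replicate 3 (0.58, adjusted p = 0.107).

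CX3CL1 alone gave MYD88 a log2 fold change of 0.44 over No treatment, which was not called (SE 0.17, interval 0.08 to 0.79, unadjusted p = 0.0209, limma adjusted p = 0.389). Without CX3CL1 replicate 2 it was 0.58 (adjusted p = 0.134). CX3CL1 added to IFN-γ gave 0.16 (interval -0.20 to 0.52).

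TIRAP (chromosome 9, 35184551 to 35200291, minus strand) and TICAM1 (chromosome 17, 56269319 to 56276786, minus strand), the other adaptors, were not called in any comparison. TIRAP exons overlap with those of Srpr and of the antisense gene Gm39318 on the opposite strand. TIRAP stood at 18.5, 14.97 and 16.8 TPM without treatment, 18.4, 23.4 and 18.8 TPM with CX3CL1, 17.97, 16.6 and 16.8 TPM with IFN-γ, and 20.9, 19.7 and 18.7 TPM with both. Its values with both agents were above those with IFN-γ alone, with a log2 fold change of 0.19 (SE 0.12, limma adjusted p = 0.976). For CX3CL1 against No treatment the log2 fold change was 0.25 (unadjusted p = 0.0490, adjusted p = 0.616), and 0.15 without CX3CL1 replicate 2, which was the highest of the 12 libraries.

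TICAM1 was the steadiest of the 9 genes between group means, at 10.9 ± 0.884 TPM without treatment, 10.8 ± 1.86 TPM with CX3CL1, 10.5 ± 1.88 TPM with IFN-γ and 11.04 ± 2.41 TPM with both (SD, n = 3). Its 12 libraries ranged from 8.96 to 13.8 TPM, and the highest value of each group was that of replicate 1. The 95% interval of its log2 fold change ran from -0.39 to 0.33 for CX3CL1 and from -0.42 to 0.30 for IFN-γ, both against No treatment.

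**Figure D3:**
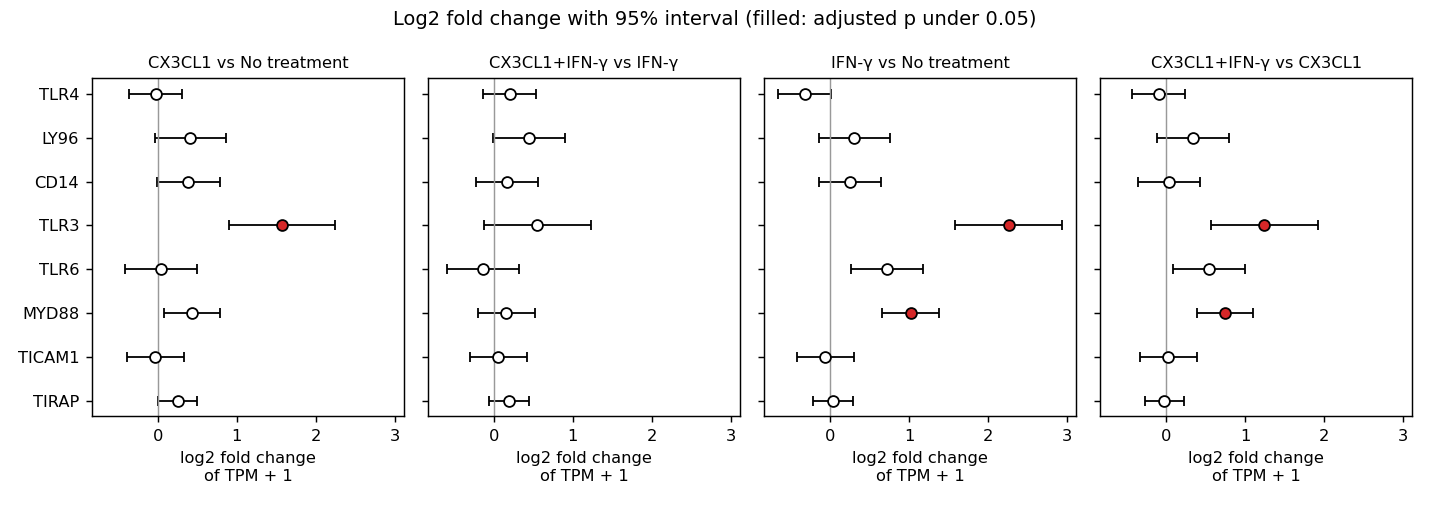
Log2 fold change of TPM + 1 (horizontal axes) with 95% interval for the 8 tested genes in 4 comparisons, from limma. Filled points mark an adjusted p under 0.05: TLR3 in 3 comparisons and MYD88 in 2, and none for CX3CL1+IFN-γ against IFN-γ.

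No gene of the 8 tested was called for CX3CL1+IFN-γ against IFN-γ, and none had an unadjusted p under 0.05 there, while 0.345% of all genes were called higher and 0.0168% lower by limma. Same-numbered libraries of these groups deviated together. Within such pairs TLR3, LY96, CD14, TLR4, TIRAP and TICAM1 were higher with both agents in 3 of 3 pairs. MYD88 was higher in 2 of 3, and TLR6 was lower in 3 of 3. How often all genes tested moved in the same direction in 3 of 3 pairs was not counted, so these counts are a description only. With the replicate number as a block none of the 8 was called either, with limma adjusted p-values from 0.534 (LY96) to 0.848 (TICAM1) and 0.652 for TLR3. In separation between groups, 2 of the 8 (TLR3 and MYD88) lay higher without overlap for CX3CL1 against No treatment, where 5.50% of all genes did. The count was 3 (TLR3, MYD88 and TLR6) for IFN-γ against No treatment, where 20.6% of all genes did, and the same 3 for CX3CL1+IFN-γ against CX3CL1, where 14.0% did. It was 2 (LY96 and TIRAP) for CX3CL1+IFN-γ against IFN-γ, against 8.54% of all genes. None of the 8 lay lower without overlap in any of these comparisons, where in the same order 5.73%, 13.7%, 5.48% and 7.74% of all genes did. The median log2 fold change of the 8 genes was 0.32, 0.28, 0.19 and 0.18 in the order CX3CL1 against No treatment, IFN-γ against No treatment, CX3CL1+IFN-γ against CX3CL1, and CX3CL1+IFN-γ against IFN-γ, and that of all genes was -0.02, 0.03, 0.04 and -0.00. The first and second of these comparisons share the No treatment libraries. Under median-ratio scaling the share of higher genes among all calls was 64.6% in place of 75.3% for IFN-γ against No treatment, and 65.6% in place of 80.1% for CX3CL1+IFN-γ against CX3CL1.

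The rest of the pathway was summarised by lists of its parts. Of 18 kinases and ubiquitin ligases that carry the signal (IRAK, TRAF6, TAK1 and IKK genes), 17 were tested, and 1 was called in any comparison. IKBKE, a kinase that phosphorylates interferon regulatory factors, stood at 7.74, 5.70 and 7.001 TPM without treatment and 20.0, 10.8 and 15.9 TPM with CX3CL1, and rose 2.29-fold (log2 fold change 1.05, limma adjusted p = 0.0361). That call was lost in 11 of 18 alternatives (adjusted p-values from 0.0506 to 0.184), among them leaving out any No treatment or IFN-γ library, CX3CL1 replicate 1 or 3, or CX3CL1+IFN-γ replicate 3. The share of all genes tested that was called higher with CX3CL1 was 1.78%. The next 3 by size, TRAF3, IRAK2 and PELI1, had log2 fold changes of at most 0.38 in size and were not called. The median log2 fold change of the list was 0.10 with CX3CL1 and 0.12 with IFN-γ, beside -0.02 and 0.03 for all genes. The chaperones of Toll-like receptors HSP90B1, CNPY3 and CNPY4 were the 3 tested of 10 accessory and trafficking genes, and none was called.

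Of 11 transcription factors at the end of the pathway, 10 were tested, and 3 rose with CX3CL1, 3 with IFN-γ, 1 with CX3CL1 added to IFN-γ and 2 with IFN-γ added to CX3CL1, and none was called lower. Of all genes tested, 1.78%, 5.91%, 0.345% and 3.76% were called higher in these comparisons, in the same order. NFKB1, the precursor of the NF-kB subunit p50, rose with CX3CL1 in both settings, 1.91-fold over No treatment (limma adjusted p = 0.000254) and 1.78-fold over IFN-γ (adjusted p = 0.00151), while its log2 fold change with IFN-γ was 0.21 (adjusted p = 0.227). IRF7, a driver of type I interferon genes, rose 11.8-fold with IFN-γ (adjusted p = 5.2e-05), and its No treatment libraries spread from 21.6 to 112 TPM. Without No treatment replicate 1, the highest of them, the ratio was 21.3 (adjusted p = 3.77e-06). IRF5, another partner of MYD88 signalling, rose 9.27-fold with IFN-γ (adjusted p = 0.000536) from 0.724 ± 0.119 TPM (SD, n = 3). RELB, a subunit of the non-canonical NF-kB pathway, rose 3.43-fold with CX3CL1 (adjusted p = 0.00112) and 3.77-fold with IFN-γ (adjusted p = 0.000143).

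Of 10 negative regulators, 9 were tested, and 2 rose with CX3CL1, 5 with IFN-γ, 1 with CX3CL1 added to IFN-γ and 2 with IFN-γ added to CX3CL1, against 1.78%, 5.91%, 0.345% and 3.76% of all genes tested. ZC3H12A, an RNase that degrades cytokine mRNAs, stood at 3.83, 3.71 and 3.29 TPM without treatment and at 40.4, 22.3 and 32.2 TPM with CX3CL1 (8.76-fold, limma adjusted p = 0.000138). NFKBIA, the inhibitor that holds NF-kB in the cytoplasm, rose 5.07-fold with CX3CL1 (adjusted p = 0.00131) and 4.29-fold with IFN-γ (adjusted p = 0.00071). TRAFD1 rose 5.19-fold with IFN-γ (adjusted p = 0.00181), and TNFAIP3 (the protein A20), which removes ubiquitin chains, rose 1.76-fold (adjusted p = 0.0161). The TNFAIP3 call was lost without IFN-γ replicate 2 or 3 or No treatment replicate 2 or 3 (adjusted p-values from 0.0589 to 0.0873). With IFN-γ added to CX3CL1, the calls of this list were those of TNFAIP3, lost in 5 of 18 alternatives (0.0531 to 0.103), and TRAFD1, lost in 7 (0.0565 to 0.158). The median log2 fold change of the list was 0.57 with CX3CL1 and 0.90 with IFN-γ, beside -0.02 and 0.03 for all genes.

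The 13 genes known to respond to LPS had the largest medians of the pathway lists. Of the 11 tested, 6 rose with CX3CL1, 8 with IFN-γ, 5 with CX3CL1 added to IFN-γ and 7 with IFN-γ added to CX3CL1, with list medians of 1.28, 3.02, 1.83 and 2.03 on the log2 scale. Of all genes tested, 1.78%, 5.91%, 0.345% and 3.76% were called higher in the same order, and the medians of all genes were -0.02, 0.03, -0.00 and 0.04. IL6, a cytokine, stood at 0.238, 0.203 and 0.407 TPM without treatment, at 2.68, 1.67 and 2.03 TPM with CX3CL1, at 4.39, 4.50 and 4.27 TPM with IFN-γ, and at 24.9, 13.6 and 29.6 TPM with both, and was called in all 4 comparisons (limma adjusted p-values from 3.66e-05 to 0.00681). CXCL1, a neutrophil chemokine, rose 88.6-fold with CX3CL1 (adjusted p = 6.87e-06) and 11.1-fold with IFN-γ (adjusted p = 0.000121). CXCL10, a T cell chemokine, rose 9.74-fold with CX3CL1 (adjusted p = 0.0182) and 38.8-fold with IFN-γ (adjusted p = 0.000274), and SAA3, an acute-phase protein, rose 8.53-fold (adjusted p = 0.0230) and 25.3-fold (adjusted p = 0.000323). The size of the CXCL10 ratio for IFN-γ depended on 1 library, since its IFN-γ libraries held 199.5, 207.3 and 973.6 TPM. Without replicate 3 the ratio was 17.2 (limma adjusted p = 0.000612), and the call was kept in all 18 alternatives. With CX3CL1, the CXCL10 call was lost without the filter (adjusted p = 0.0832) and without CX3CL1 replicate 1 or 3 or any No treatment library (0.0619 to 0.0958). The SAA3 call with CX3CL1 was lost without the filter (0.0986) and without CX3CL1 replicate 1 or 3 or No treatment replicate 2 or 3 (0.0652 to 0.116). Some of these genes are also named by the study from these same libraries, so their direction is no independent evidence. None of the genes in these lists was called lower in any of the 4 comparisons.

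**Figure D4:**
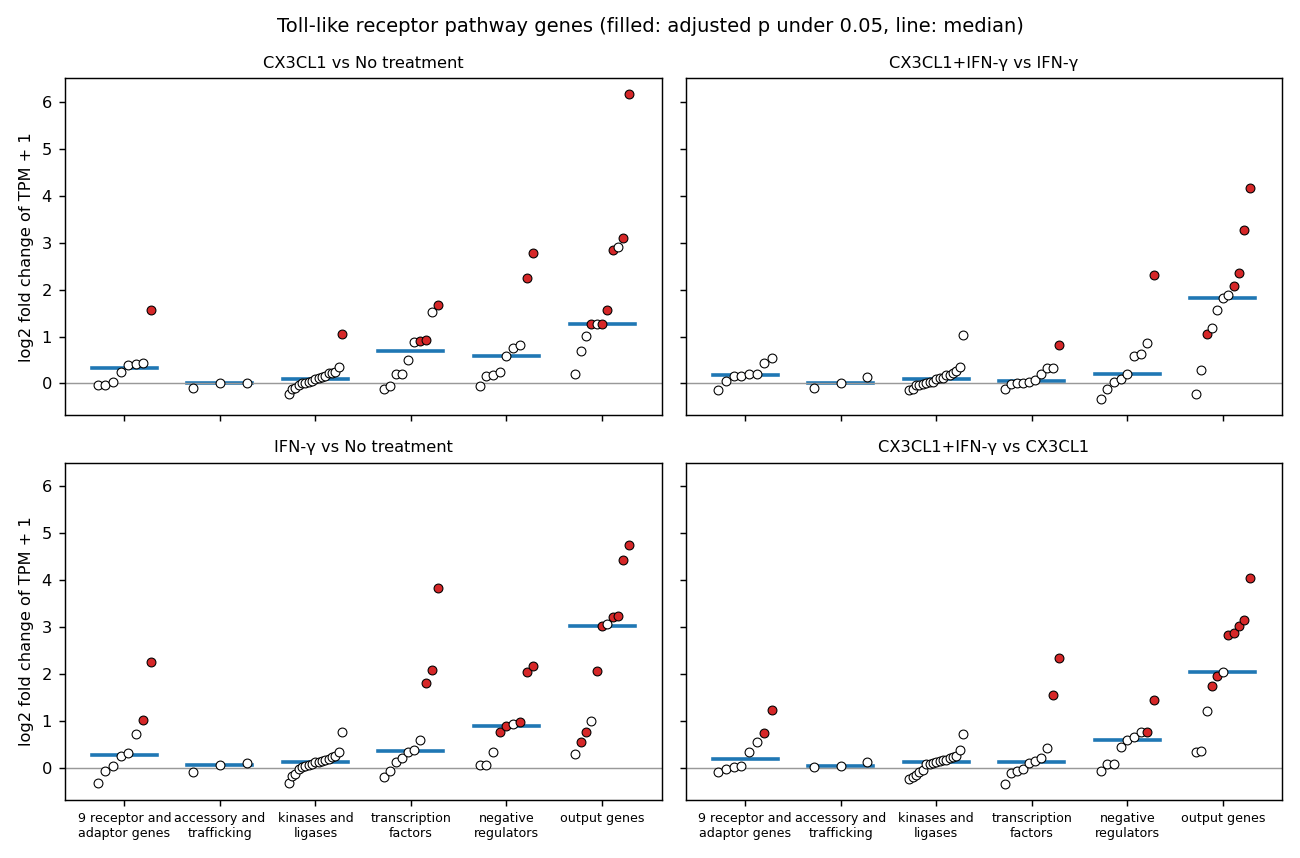
Log2 fold change of TPM + 1 (vertical axes) of each tested gene in the lists of Toll-like receptor pathway parts, in 4 comparisons, with filled points at an adjusted p under 0.05 and a line at each list's median. The points of accessory genes and of kinases and ligases lie near 0, and those of output genes reach 6.17 (CXCL1, CX3CL1 against No treatment).

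Leukocyte markers were followed beside these results because macrophages carry the same receptors. Of 12 markers, 4 were tested (CD68, LYZ2, FCER1G and CD79A), 3 were listed at 0 in every library, and none was called with CX3CL1 or IFN-γ against No treatment. FCER1G was called lower for CX3CL1+IFN-γ against IFN-γ (limma adjusted p = 0.0470), from 0.618 ± 0.0893 to 0.0604 ± 0.105 TPM (SD, n = 3), a call lost in 14 of 17 alternatives (adjusted p-values from 0.0509 to 0.258), among them leaving out any library of these groups. The summed level of the 12 markers was 9.79 to 18.2 TPM without treatment, 9.06 to 22.6 TPM with CX3CL1, 10.6 to 20.9 TPM with IFN-γ and 10.4 to 27.8 TPM with both, most of it CD68, and their part in the results was not tested. The 4 endothelial markers summed to at most 0.0725 TPM. Of the epithelial and mesenchymal markers, KRT18 was called lower with IFN-γ than without treatment (log2 fold change -0.68, adjusted p = 0.0346), and this call was lost in 6 of 18 alternatives (0.0609 to 0.164), among them leaving out any IFN-γ library or No treatment replicate 2 or 3. Of the 6 fibroblast and mural markers 5 were tested, ACTA2 reached at most 0.0780 TPM, and COL1A2 made up most of the sum, at 452.4 to 868.9 TPM. They summed to 771 to 975 TPM without treatment, 539 to 690 TPM with CX3CL1, 644 to 745 TPM with IFN-γ and 489 to 544 TPM with both. Of these, COL1A2 was called lower with CX3CL1 (adjusted p = 0.0408, lost in 12 of 18 alternatives, 0.0520 to 0.210, among them leaving out CX3CL1 replicate 2 or 3, No treatment replicate 1 or 2, or any library of the 2 other groups) and COL3A1 with IFN-γ (adjusted p = 0.000391), and their part in the results was likewise not tested.

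The genes whose levels followed each of the 8 genes most closely were found by Pearson's r of log2(TPM + 1) over the 12 libraries, which share the group differences and the TPM scaling, so r is a description only. TLR3 was followed by TRIM30A (r = 0.992), IFIH1 (0.990), a cytosolic sensor of double-stranded RNA, and DTX3L (0.987). MYD88 was followed by ZNFX1 (0.985), IRF5 (0.984) and GBP5 (0.984), a guanylate-binding protein. The closest genes of the members that were not called were SNX7 for TLR4 (0.962), NABP1 for LY96 (0.953), ARHGEF40 for CD14 (0.911), RMDN3 for TLR6 (0.975), PFKL for TICAM1 (0.969) and MAPK6 for TIRAP (0.969).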

How the data were processed

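CT26 cells in 4 groups of 3 biological replicates were compared, with groups taken from the labels. Doses and time came from the study's methods and figure legend. Libraries were made by the authors with a strand-specific mRNA kit, and they aligned reads to mm10 with STAR 2.7.3a and tested gene counts with DESeq2 1.22.1. The deposited values are TPM, made by the authors and scaled to 1000000 per library. How counts became TPM, the annotation, filters, the strand setting and the treatment of shared reads are not given in the sources used here. TPM hold no depth, so precision rests on the spread between replicates, and a rise of abundant transcripts lowers all others.

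From the TPM, log2(TPM + 1) was fitted in R 4.3.3 with limma 3.58.1 (lmFit, eBayes with trend) for the 11878 genes averaging 0.2 TPM or more, from all 12 libraries with no block, and Benjamini-Hochberg adjustment with a threshold of 0.05. On simulated data made from these libraries for CX3CL1 against No treatment (11878 genes), 170 of 200 genes changed by a log2 of 1 were recovered with 7 false calls, and 192 of 200 changed by a log2 of 2 with 14. The simulated noise was independent for each gene and library, so deviations shared by libraries of the same number were not simulated. These counts may therefore differ from those in the real libraries. The fit was repeated with a pseudocount of 0.1, without the filter, with genes averaging 1 TPM or more, after median-ratio scaling, on the compared libraries alone, with a replicate block, and with each library omitted.

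The genes, lists and tests were chosen with earlier results of these data known. Up to 4 genes a list were named, those called in most comparisons and then of largest change, with the 3 closest genes by correlation, and 1 gene of the IFN-γ response check is not reported here. Same-numbered libraries deviated together from their group means for No treatment and IFN-γ (r = 0.429, 0.460 and 0.220 across genes), IFN-γ and CX3CL1+IFN-γ (0.630, 0.635 and 0.649), and CX3CL1 and CX3CL1+IFN-γ (0.351, 0.353 and 0.428), which were taken as paired from these data alone, but not for No treatment and CX3CL1 (0.387, 0.00472 and 0.301). The main fit had no block, so its p-values leave this pairing out, and only the fit with a replicate block uses it. Positions came from GENCODE vM21 on GRCm38, the assembly of mm10, and sequences from RefSeq on GRCm38.p6.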

Additional observations from a re-analysis of the deposited data

Results flagged for a closer look

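TLR2 was left out of the tests because its mean was below 0.2 TPM, and its values separated the libraries by IFN-γ. The lowest of the 6 libraries with IFN-γ was at 0.0146 TPM, and the 6 libraries without IFN-γ were listed at 0. Both are far below the level of the other 8 genes, and the reads behind them are unknown.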

How the results depend on the processing

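TPM do not give the number of reads behind a value, so the counting error of low values such as those of TLR2 could not be estimated. The count of the 8 genes called for CX3CL1 against No treatment, 1 (TLR3), was 0 without the filter and 0 to 1 when a library was left out. For IFN-γ against No treatment it was 2, and 2 to 3 when a library was left out. For CX3CL1+IFN-γ against CX3CL1 it was 2. Without the filter TLR3 and MYD88 both lost their calls and TLR2, not tested otherwise, was called, so that the count was 1 of 9. It was 0 under median-ratio scaling, 1 (TLR3) with only the libraries compared, and 0 to 2 when a library was left out. For CX3CL1+IFN-γ against IFN-γ and for the interaction it was 0 under every alternative run. Of 35 calls of the genes named from the pathway and marker lists, 25 were kept in every alternative run. With the replicate number as a block, TLR6 became a call for IFN-γ against No treatment (log2 fold change 0.72) and no other call of the 8 genes changed. That block took the calls over all genes from 232 to 455, 932 to 1929, 43 to 95, 558 to 1369 and 0 to 52 in the order CX3CL1 and IFN-γ against No treatment, CX3CL1+IFN-γ against IFN-γ and against CX3CL1, and the interaction. Without the filter 43 became 28, and with only the libraries compared 43 became 20 and 558 became 344. Leaving out 1 library gave 152 to 268, 536 to 1499, 16 to 54, 268 to 667 and 0 to 11.

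Signs turned only in small log2 fold changes that were not called. Under median-ratio scaling these were, for CX3CL1 against No treatment, TLR4 (0.0022) and TICAM1 (0.00077), for IFN-γ against No treatment TIRAP (-0.0026), and for CX3CL1+IFN-γ against CX3CL1 CD14 (-0.031) and TICAM1 (-0.038). When a library was left out, values for CX3CL1 against No treatment ran from -0.18 to 0.12 (TLR4), -0.078 to 0.27 (TLR6) and -0.14 to 0.087 (TICAM1), and for IFN-γ against No treatment from -0.19 to 0.0064 (TICAM1) and -0.038 to 0.11 (TIRAP). For CX3CL1+IFN-γ against IFN-γ they ran from -0.30 to 0.0086 (TLR6), -0.0048 to 0.28 (MYD88) and -0.10 to 0.19 (TICAM1), and for CX3CL1+IFN-γ against CX3CL1 from -0.13 to 0.24 (CD14), -0.13 to 0.14 (TICAM1) and -0.084 to 0.082 (TIRAP). For the interaction they ran from -0.21 to 0.27 (LY96), -0.074 to 0.22 (TICAM1) and -0.13 to 0.046 (TIRAP). The causes were not tested.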
